A study of Mus musculus with 6 samples.

Results

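The 10 genes described here encode the regulators and subunits of the mouse pyruvate dehydrogenase complex. They are the 4 kinases Pdk1, Pdk2, Pdk3 and Pdk4, the phosphatase catalytic subunits Pdp1 and Pdp2, and the complex subunits Pdha1, Pdhb, Dlat and Pdhx. All 10 were found by symbol among the 24938 Ensembl genes listed for each library, and all 10 passed the filter on low values, as did 12222 genes in all. Pdk4 was put forward because its p in the contrast of the study was small, so its difference between the groups is given as a description with no test. The other 9 were taken for their place in the same enzyme system.

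RNA was sequenced from NIH3T3 cells, an established line of mouse embryonic fibroblasts, in 6 libraries. The 3 control libraries are labelled wild type, and the other 3 are labelled as overexpressing F-CircAE, a closed-loop transcript related to AML1-ETO, the RUNX1-RUNX1T1 fusion of human myeloid leukaemia. The titles of the wild-type libraries begin with V, which the labels do not explain, and no label states whether these cells carried an empty vector, so the overexpression procedure and the circular RNA cannot be told apart. Whether replicates were grown as separate cultures is not stated, so SDs and p-values reflect variation among these libraries alone, which may be technical.

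The pyruvate dehydrogenase complex converts pyruvate to acetyl-CoA in the mitochondrial matrix and so links glycolysis to the tricarboxylic acid cycle. Its E1 component is a tetramer of alpha and beta subunits, Dlat is the E2 acetyltransferase that forms the core, and Pdhx anchors the E3 component to that core. The Pdk kinases phosphorylate the E1 alpha subunit and switch the complex off, and the Pdp phosphatases remove the phosphate and switch it on. Pdk4 is known as the member induced by fasting, fatty acids and glucocorticoids in muscle, heart and liver, and Pdk1 as a target of hypoxia signalling. RNA levels do not measure phosphorylation or enzyme activity.

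The stretches upstream of the 4 kinase genes are shown because these paralogs are the transcripts compared most closely below. They come from RefSeq (GRCm38.p6, the assembly also called mm10), read in the direction of the gene and ending before the annotated start in both RefSeq and GENCODE. Capitals mark a match, on either strand, to a CCAAT box (CCAAT), a GC box (GGGCGG) or ACGTG, a form of the hypoxia response element core. Other forms of that core were not searched for and are not marked. The stretches are chr6:5496310-5496528 on the minus strand for Pdk4, chr2:71872974-71873223 on the plus strand for Pdk1, chr11:95041372-95041621 on the minus strand for Pdk2 and chrX:93832202-93832400 on the minus strand for Pdk3.
Pdk4: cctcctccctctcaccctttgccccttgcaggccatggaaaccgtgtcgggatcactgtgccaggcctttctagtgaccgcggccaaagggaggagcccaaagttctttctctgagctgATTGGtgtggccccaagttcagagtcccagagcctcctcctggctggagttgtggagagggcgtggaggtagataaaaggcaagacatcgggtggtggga
Pdk1: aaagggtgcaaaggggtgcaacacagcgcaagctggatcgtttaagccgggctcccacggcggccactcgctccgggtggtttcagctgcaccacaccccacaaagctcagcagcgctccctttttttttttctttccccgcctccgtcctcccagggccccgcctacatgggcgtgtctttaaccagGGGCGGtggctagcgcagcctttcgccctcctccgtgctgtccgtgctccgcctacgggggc
Pdk2: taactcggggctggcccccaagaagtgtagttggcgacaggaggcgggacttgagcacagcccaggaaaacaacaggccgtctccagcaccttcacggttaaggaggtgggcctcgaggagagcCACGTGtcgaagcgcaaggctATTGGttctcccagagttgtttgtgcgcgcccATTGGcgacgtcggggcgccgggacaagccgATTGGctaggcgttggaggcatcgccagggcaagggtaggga
Pdk3: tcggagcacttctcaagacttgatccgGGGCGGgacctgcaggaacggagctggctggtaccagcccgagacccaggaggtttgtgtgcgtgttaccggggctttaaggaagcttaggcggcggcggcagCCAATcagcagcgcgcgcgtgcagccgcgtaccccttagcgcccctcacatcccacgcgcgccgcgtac

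In the 250 bases before the RefSeq start, Pdk4 held 1 CCAAT box, on the minus strand, and no GC box. Pdk1 held a GC box and no CCAAT box, Pdk3 held both, and Pdk2 held 3 CCAAT boxes together with CACGTG, a palindrome that matches ACGTG on both strands at overlapping positions. Pdk3 also held ACGTG, which reaches into GENCODE's first exon and so past the end of the printed stretch. The table had entries for 9 of the 10 genes, with 11 start sites in all. A CCAAT box was found before 5 of these starts and a GC box before 6, compared with 33.8% and 32.7% of all 32851 promoters. ACGTG was found before 4, compared with 16.6% of all promoters. No start of the 9 genes had a match, on either strand, to TATAAA, to the FOXO core GTAAACA, to the estrogen-related receptor element TCAAGGTCA, or to the NRF1 palindrome, the PPAR direct repeat with a spacer of 1 base or the glucocorticoid palindrome with a spacer of 3 bases. Over all promoters the same window held them in 12.4% for TATAAA, 3.17% for GTAAACA, 0.387% for TCAAGGTCA and 0.782% for the NRF1 palindrome, and the PPAR repeat and the glucocorticoid palindrome were found in 11 and 3 promoters.

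The libraries were of similar depth but did not all resemble their group. Values are FPKM, reads scaled by gene length and library size, so levels of different genes can be compared. For the 79.5% of genes with a recoverable read number, a library held 12093661 to 15556230 reads. Control replicates 1 and 2 differed little beyond counting error (chi-square per gene 1.47, on a scale where counting error alone gives about 1), compared with 5.17 to 26.3 for the other 14 pairs, and were entered separately. On the leading principal component (35.5% of the variance) control replicate 3 (11.2) and overexpression replicate 1 (16.6) lay away from control replicates 1 and 2 (-13.9 and -13.3), with overexpression replicates 2 and 3 between them (0.59 and -1.34). Fibroblast markers were high in every library, the 8 that were listed summing to 1619 to 1915 FPKM in control and 1495 to 1798 with overexpression. The 5 listed adipocyte markers summed to 0.27 to 0.41 FPKM in control and 0.28 to 0.55 with overexpression, and the 3 endothelial markers to at most 1.14 FPKM. Of the muscle, macrophage and epithelial markers Des, Cd68, Lyz2, Cdh1 and Krt14 had means above 1 FPKM, and their lists summed to ranges that overlapped between the groups (2.40 to 2.60 and 2.36 to 2.61 for muscle, 27.7 to 31.2 and 24.2 to 30.3 for macrophage, 5.93 to 8.79 and 7.04 to 8.12 for epithelial).

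Pdk4 was the most abundant of the 4 kinases in every library, and its level was lower in the overexpressing cells. Pdk4 (ENSMUSG00000019577) lies on chromosome 6 from 5483351 to 5496309 on the minus strand (mm10), and its exons overlap no other annotated gene. The controls held 44.4, 46.0 and 42.8 FPKM in replicates 1, 2 and 3, and the overexpression libraries 24.8, 31.5 and 28.4 FPKM. All 3 overexpression libraries lay below all 3 controls, and control replicate 3, which stood apart from the other controls over all genes, stood with them here. Pdk4 averaged 44.4 ± 1.6 FPKM in the controls and 28.3 ± 3.32 FPKM with overexpression (SD, n = 3), a difference of -36.4% of the control mean. The SD was 3.61% of the mean in control and 11.8% with overexpression, where counting error accounts for 1.7% to 2.6% of a library's value. In RNA from whole cultures, fewer cells with high Pdk4 and less Pdk4 RNA per cell cannot be told apart.

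The reads behind these values numbered 3190, 3449 and 2877 in the controls and 1477, 2378 and 1865 with overexpression. The exact 95% Poisson interval was 41.2 to 44.4 FPKM for the lowest control and 30.2 to 32.8 FPKM for the highest overexpression library. These do not overlap, but Pdk4 was chosen on this contrast, so that is no test of the group difference. Such intervals cover counting error only, since reads of amplified libraries are not independent molecules. Among the overexpression libraries the intervals of replicate 1 (23.6 to 26.1 FPKM) and replicate 3 (27.2 to 29.8 FPKM) did not overlap either, so the overexpression libraries differed among themselves by more than counting error. On the log2(FPKM + 1) scale the difference was -0.64. It was -0.55 without overexpression replicate 1, the lowest library, and -0.58 without both that library and control replicate 3.

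**Figure D1:**
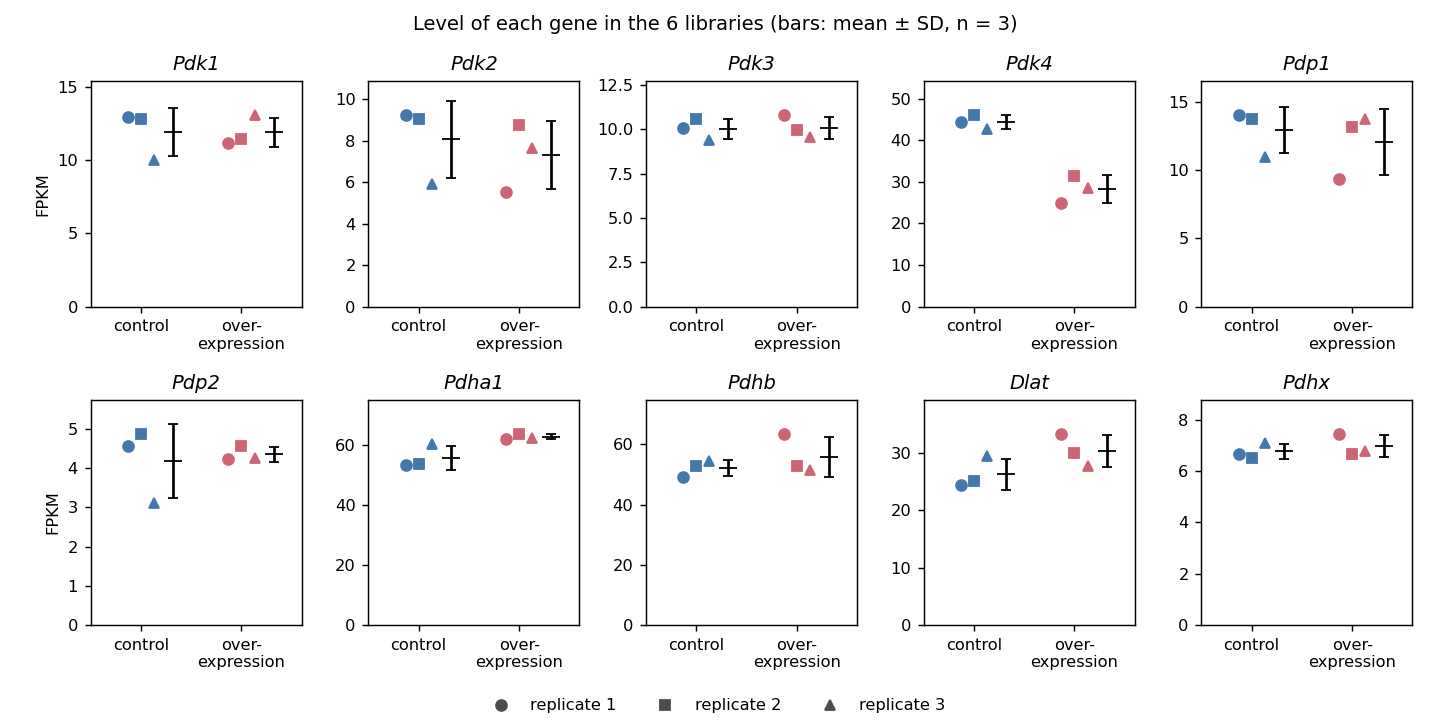
Level of the 10 genes in FPKM (vertical axis, from 0, a separate scale for each gene) in the control and overexpression libraries. Symbols are the 3 replicates and the black bars the mean ± SD. For Pdk4 all overexpression libraries (24.8 to 31.5) lie below the controls (42.8 to 46.0) and for Pdha1 they lie above (62.0 to 63.5 compared with 53.1 to 60.3), while for the other 8 genes the groups overlap.

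The other kinases showed no difference of this size. Across all tested genes 0% (0 of 12222) passed a Benjamini-Hochberg adjusted p of 0.05 in limma, and none of the 10 members did. The smallest adjusted p over all genes was 0.260. An unadjusted limma p below 0.05 was found for 632 of the 12222 genes, near the share this threshold gives where nothing differs. Pdk4 had the lowest estimate of the members fitted in the main setting and in each of the 18 alternatives. Of these alternatives 2 lacked Pdp2 and 1 of those also Pdhb. Pdk4 was chosen on this contrast and the alternatives reuse the same libraries, so its rank is a description with no test. The test and the adjusted p of each of the other 9 come from the main fit over all genes.

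Pdk1, the kinase best known from hypoxia, lies on chromosome 2 (71873224 to 71903858, plus strand). It had 12.9, 12.8 and 10.04 FPKM in the controls and 11.2, 11.5 and 13.1 with overexpression. The groups overlapped, and the highest library was overexpression replicate 3. Pdk1 averaged 11.9 ± 1.63 FPKM in the controls and 11.9 ± 1.02 FPKM with overexpression (SD, n = 3), a log2 fold change of 0.001 with a 95% interval of -0.25 to 0.26 (limma adjusted p = 0.999). At 61.5% of tested genes at or below its mean level, Pdk1 was a gene of middle abundance, beside 87.7% for Pdk4.

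Pdk2, a kinase of wide tissue distribution, lies on chromosome 11 (95026258 to 95041354, minus strand). It had 9.22, 9.07 and 5.93 FPKM in the controls and 5.51, 8.74 and 7.65 with overexpression. Its low libraries were control replicate 3 and overexpression replicate 1, 1 in each group. The log2 fold change was -0.13 with an interval of -0.60 to 0.35 (limma adjusted p = 0.903). Pdk2 was the least precisely measured kinase here, with 295 to 613 reads and SDs of 1.86 and 1.65 FPKM around means of 8.08 and 7.30. Its interval came closest of the 9 to the Pdk4 value, and it reached that value in 4 of the 18 alternatives, namely with a pseudocount of 0.1 and without control replicate 3, overexpression replicate 2 or overexpression replicate 3. A change of Pdk2 as large as that of Pdk4 was thus bounded only narrowly by these libraries.

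Pdk3, on the X chromosome (93764607 to 93832201, minus strand), had 10.1, 10.6 and 9.42 FPKM in the controls and 10.8, 9.94 and 9.57 with overexpression. It was the steadiest kinase across the libraries, from 9.42 to 10.8 FPKM. Its log2 fold change was 0.01 with an interval of -0.15 to 0.17 (limma adjusted p = 0.982). The signs of the near-zero Pdk1 and Pdk3 estimates depended on the setting.

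**Figure D2:**
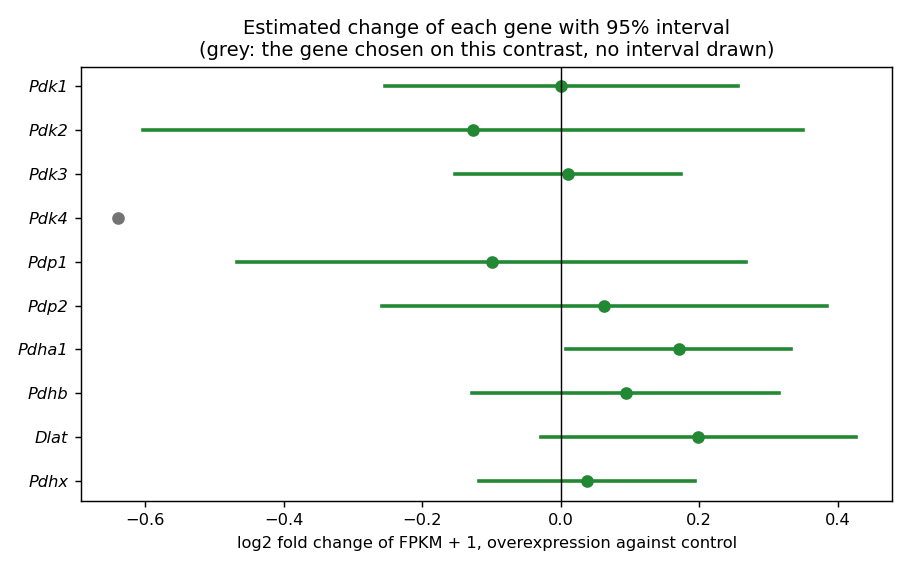
Log2 fold change of FPKM + 1, overexpression against control (horizontal axis), for the 10 genes, with 95% intervals from limma (lines) for the 9 genes other than Pdk4, which is drawn without one because it was chosen on this contrast. The Pdk4 point lies at -0.64, below the intervals of the other 9, and the interval of Pdk2 (-0.60 to 0.35) ends nearest to it. As the uncertainty of Pdk4 is not drawn, its place is no test of a difference between Pdk4 and any other member.

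Because FPKM is scaled by gene length, the 4 kinases can be added. Their sum was 76.6, 78.5 and 68.2 FPKM in the controls and 52.3, 61.6 and 58.7 FPKM with overexpression. Pdk4 held 57.9%, 58.6% and 62.8% of that sum in the controls and 47.5%, 51.1% and 48.4% with overexpression. The sum of Pdk1, Pdk2 and Pdk3 alone was 30.0 ± 4.01 FPKM in control and 29.3 ± 1.6 FPKM with overexpression (SD, n = 3), and the groups overlapped. With Pdk4 left out, the summed level thus did not separate the groups. No test is given for these sums, since Pdk4 was chosen on this contrast.

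**Figure D3:**
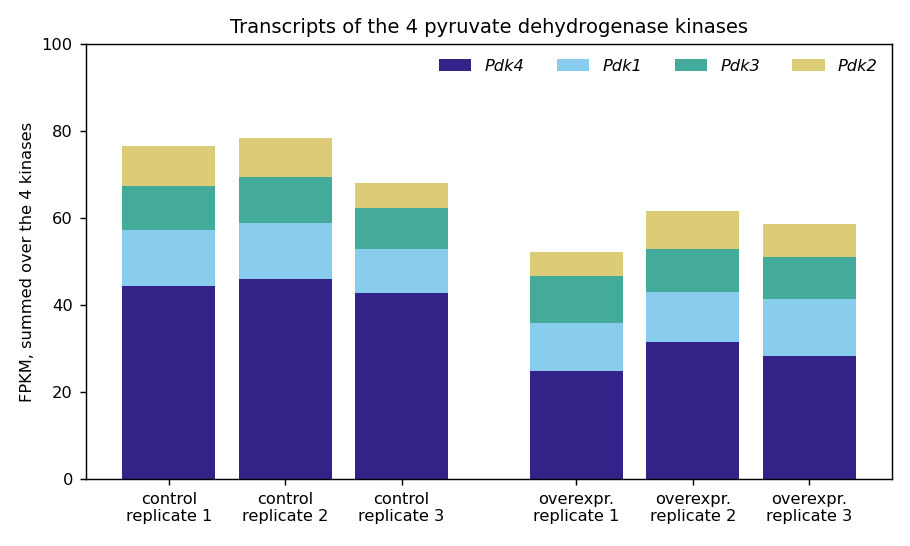
FPKM of the 4 kinase genes stacked for each of the 6 libraries (vertical axis, from 0). The Pdk4 segment spans 42.8 to 46.0 in the controls and 24.8 to 31.5 with overexpression, whereas the other 3 kinases together span 25.4 to 32.5 and 27.4 to 30.3.

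The phosphatase genes did not pass either. Pdp1, the calcium-sensitive catalytic subunit (chromosome 4, 11958184 to 11966452, minus strand), had 14.0, 13.8 and 10.96 FPKM in the controls and 9.33, 13.1 and 13.8 with overexpression. As for Pdk2, control replicate 3 and overexpression replicate 1 were the low libraries of their groups. The log2 fold change was -0.10 with an interval of -0.47 to 0.27 (limma adjusted p = 0.900). Without overexpression replicate 1 the estimate was 0.06, so its sign rested on that library.

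Pdp2, the catalytic subunit linked to insulin action (chromosome 8, 104591451 to 104599026, plus strand), was the least abundant of the 10 genes. It had 4.56, 4.88 and 3.12 FPKM in the controls and 4.24, 4.57 and 4.26 with overexpression. The lowest library was again control replicate 3, and the overexpression libraries lay within the range of the controls. Its log2 fold change was 0.06 with an interval of -0.26 to 0.38 (limma adjusted p = 0.934), and without control replicate 3 it was -0.09.

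Kinase transcripts exceeded phosphatase transcripts in every library. The ratio of summed Pdk to summed Pdp FPKM was 4.13, 4.21 and 4.84 in the controls and 3.85, 3.48 and 3.26 with overexpression. With Pdk4 left out of the sum the ratio was 1.74, 1.74 and 1.80 in the controls and 2.02, 1.70 and 1.68 with overexpression, and the groups overlapped. These are ratios of RNA levels, and the proteins were not measured.

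The 4 subunit genes had estimates above 0, and none passed. Pdha1 encodes the E1 alpha subunit that the Pdk kinases phosphorylate, and lies on the X chromosome (160122209 to 160138413, minus strand). It had 53.1, 53.4 and 60.3 FPKM in the controls and 62.0, 63.5 and 62.3 with overexpression. All 3 overexpression libraries lay above all 3 controls, with control replicate 3 the nearest control to them. Pdha1 averaged 55.6 ± 4.07 FPKM in the controls and 62.6 ± 0.82 FPKM with overexpression (SD, n = 3), a log2 fold change of 0.17 with an interval of 0.01 to 0.33 (limma adjusted p = 0.842). With array weights, which were lowest for control replicate 3 (0.24) and overexpression replicate 1 (0.28) and highest for overexpression replicate 2 (4.64), it passed (0.24, limma adjusted p = 0.021), but 18.3% of all tested genes were then called, and it did not pass once control replicates 1 and 2 were also averaged (0.16, limma adjusted p = 0.916). Without both libraries that stood apart 1.39% of 11840 tested genes were called, and none of the 9 members other than Pdk4.

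Pdha1 shares 603 exonic bases with Map3k15, a kinase gene on the other strand, and reads of the shared bases cannot be told apart where strand was not used. Map3k15 was listed at 0.33 to 0.52 FPKM in all 6 libraries. Among the 10 members the groups did not overlap for Pdk4, lower, and Pdha1, higher. Over all tested genes the groups did not overlap in 11.5%, with 6.81% higher and 4.69% lower, so 1 of the 9 genes other than Pdk4 is near the background share.

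Pdhb, the E1 beta subunit (chromosome 14, 8165996 to 8173025, minus strand), had 49.1, 52.7 and 54.6 FPKM in the controls and 63.5, 52.9 and 51.4 with overexpression. A single library, overexpression replicate 1, lay above the rest. The log2 fold change was 0.09 with an interval of -0.13 to 0.32 (limma adjusted p = 0.856), and without that library it was 0.001. The ratio of Pdha1 to Pdhb, whose products occur in equal number in the E1 tetramer, was 1.08, 1.01 and 1.10 in the controls and 0.98, 1.20 and 1.21 with overexpression.

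Dlat, the E2 core subunit (chromosome 9, 50634633 to 50659780, minus strand), had 24.5, 25.05 and 29.4 FPKM in the controls and 33.3, 29.9 and 27.8 with overexpression. Control replicate 3 lay above overexpression replicate 3, and the other controls lay below all overexpression libraries. The log2 fold change, 0.20 with an interval of -0.03 to 0.43 (limma adjusted p = 0.842), was the highest estimate of the 10. With array weights it passed (0.25, limma adjusted p = 0.023), and with control replicates 1 and 2 averaged as well it did not (0.14).

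Pdhx, the E3-binding subunit (chromosome 2, 103021075 to 103073513, minus strand), had 6.67, 6.53 and 7.11 FPKM in the controls and 7.45, 6.68 and 6.80 with overexpression. Its libraries spanned less than 1 FPKM and the groups overlapped. Its log2 fold change was 0.04 with an interval of -0.12 to 0.19 (limma adjusted p = 0.914). Dlat exceeded Pdhx in FPKM by 3.67, 3.84 and 4.14 times in the controls and 4.47, 4.48 and 4.08 times with overexpression.

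Ordered by mean level over the 6 libraries, the genes ran from Pdha1 (59.1 FPKM) and Pdhb (54.0) through Pdk4 (36.3), Dlat (28.3), Pdp1 (12.5), Pdk1 (11.9), Pdk3 (10.1), Pdk2 (7.69) and Pdhx (6.87) to Pdp2 (4.27). Over the 6 libraries the ranges of Pdha1 and Pdhb overlapped, as did those of Pdp1 and Pdk1, Pdk1 and Pdk3, and Pdk2 and Pdhx, while Pdk3 (at least 9.42 FPKM) stayed above Pdk2 (at most 9.22). The ranges of Pdk4 and Dlat overlapped too, and their means changed places between the groups. In control Pdk4 (44.4) exceeded Dlat (26.3), and with overexpression the means were 28.3 and 30.3 FPKM. Relative to Pdha1, its substrate, Pdk4 stood at 0.84, 0.86 and 0.71 in the controls and 0.40, 0.50 and 0.46 with overexpression.

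The 2 libraries that stood apart deviated from their groups alike for some of these genes and not for others. Control replicate 3 relative to the mean of control replicates 1 and 2, and overexpression replicate 1 relative to the mean of replicates 2 and 3, were at 0.65 and 0.67 for Pdk2, 0.79 and 0.69 for Pdp1, and 1.19 and 1.15 for Dlat. For Pdk1 they were at 0.78 and 0.91, for Pdhb at 1.07 and 1.22, and for Pdhx at 1.08 and 1.11. They differed more for Pdp2 (0.66 and 0.96), and lay on opposite sides of 1 for Pdk3 (0.91 and 1.11) and Pdha1 (1.13 and 0.98). For Pdk4 these ratios were 0.95 and 0.83. The SD of each group was larger than the difference between the group means for Pdk1, Pdk2, Pdk3, Pdp1, Pdp2 and Pdhx. It was smaller in both groups for Pdha1, Dlat and Pdk4, the last chosen on this contrast. For Pdhb it was smaller in control and larger with overexpression. What sets these libraries apart was not tested.

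Genes of related pathways were counted in the same fit. Of 95 genes in 9 lists 94 were in the files and 83 were tested, and none passed in either direction. The groups did not overlap for 13 of the 83 in the higher and 3 in the lower direction, 19.3% in all, compared with 11.5% of all tested genes (6.81% higher and 4.69% lower). Over all tested genes the median log2 fold change was 0.01 and 53.2% of estimates were above 0. With array weights, where 18.3% of all tested genes were called, the genes that passed higher were 8 of 16 in the tricarboxylic acid cycle, 3 of 11 in pyruvate supply, 3 of 5 complex partners, and 1 each of the branched-chain, Pdk4 regulator and fatty acid lists. Those that passed lower in that setting were 4 of 11 hypoxia targets, 2 Pdk4 regulators, and 1 each of the fatty acid and FOXO lists. With control replicates 1 and 2 averaged as well, none passed. Each list's count is given below beside these values, and within a list 2 genes are named for their level.

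The tricarboxylic acid cycle, which takes up the acetyl-CoA made by the complex, had estimates above 0 for 16 of 16 tested genes, with a median of 0.11 and a range of 0.05 to 0.19. Citrate synthase, Cs, averaged 123 ± 3.95 FPKM in the controls and 131 ± 4.67 with overexpression (SD, n = 3), and the succinate dehydrogenase subunit Sdhd 96.6 ± 3.03 and 104 ± 4.93. None of the 16 passed, and the groups did not overlap for 5, all higher, beside 6.81% of all tested genes. Rescaling the libraries to an equal FPKM sum, which moved the median of all genes to -0.05, gave 15 of 16 above 0 and a median of 0.05, and without both libraries that stood apart 16 of 16 were above 0.

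The complex partners and lipoylation genes had 4 of 5 tested estimates above 0 (median 0.12). Dld, the shared E3 subunit, had 54.0 ± 4.11 and 57.6 ± 4.23 FPKM, and Lias, which makes the lipoyl group of Dlat, 9.76 ± 1.25 and 10.7 ± 0.61 (SD, n = 3). Pdha2, the testis form of E1 alpha, was at most 0.03 FPKM in every library. Of the genes that supply pyruvate or use it otherwise, 9 of 11 had estimates above 0 (median 0.14). Pkm, pyruvate kinase, had 1024 ± 34.0 and 1187 ± 95.5 FPKM and Ldha, which reduces pyruvate to lactate, 277 ± 11.3 and 333 ± 54.5 (SD, n = 3). For both genes all overexpression libraries lay above all controls, as for 4 of the 11 in this list and 6.81% of all tested genes. Neither passed (limma adjusted p = 0.842 for each). Overexpression replicate 1 was the highest library for both, at 1296 FPKM for Pkm and 396 for Ldha. Overexpression replicates 2 and 3 held 304 and 299 FPKM of Ldha, and control replicate 3 held 290. Of the branched-chain dehydrogenase genes, a related complex with its own kinase, 3 of 4 had estimates above 0 (median 0.10), with 29.8 ± 0.80 and 33.8 ± 2.44 FPKM for the kinase Bckdk and 10.5 ± 0.50 and 11.3 ± 1.37 for the subunit Bckdhb (SD, n = 3).

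Transcription factors known to act on Pdk4 lay mostly just below 0, with 6 of 8 tested estimates below 0 and a median of -0.07. The glucocorticoid receptor gene Nr3c1 averaged 22.7 ± 1.47 FPKM in the controls and 21.8 ± 0.72 with overexpression, and Foxo4 17.3 ± 0.81 and 16.4 ± 2.83 (SD, n = 3). Ppara, Pparg, Ppargc1a and Esrrg were too low to be tested, at no more than 0.16 FPKM in any library. Without overexpression replicate 1 the count was 4 of 8 above 0 and the median -0.01.

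Genes known as targets of the same factors were counted too. Pdk4 was chosen on this contrast, so the size of its difference is no measure for theirs. Whether they share a cause was not tested. Of the 12 tested genes of fatty acid oxidation and PPAR targets 7 had estimates below 0 (median -0.03). Cpt1a, which admits fatty acids to mitochondria, had 46.4 ± 7.41 and 44.9 ± 3.41 FPKM and Acadl, an acyl-CoA dehydrogenase, 40.3 ± 2.55 and 40.6 ± 4.53 (SD, n = 3). The lowest estimate in that list was that of Angptl4, a PPAR target named after its value was seen. It was -0.31 with an interval of -1.01 to 0.40 (limma adjusted p = 0.852). Angptl4 had 18.2, 18.8 and 30.9 FPKM in the controls and 26.9, 14.7 and 13.7 with overexpression, so the groups overlapped. Over the 18 alternatives the list median ran from -0.09 with an equal FPKM sum to 0.05 without control replicate 3. Of 9 tested FOXO targets 8 had estimates below 0 (median -0.12), with 73.8 ± 3.25 and 70.1 ± 5.25 FPKM for the transcriptional cofactor Cited2 and 30.9 ± 3.66 and 28.2 ± 4.87 for the cell cycle inhibitor Cdkn1b (SD, n = 3). This count depended on the setting: without overexpression replicate 1, 5 of 9 were above 0 (median 0.01), and without both libraries that stood apart 1 of 9 was (median -0.09).

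Of 7 tested glucocorticoid targets 5 had estimates below 0 (median -0.03), and the metallothioneins Mt1 and Mt2 had 505 ± 115 and 490 ± 69.5 FPKM and 478 ± 77.9 and 506 ± 64.6 FPKM (SD, n = 3). Over the 18 alternatives the glucocorticoid median ran from -0.09 with an equal FPKM sum to 0.03 with array weights and averaged controls. Of 11 tested hypoxia targets, chosen as companions of Pdk1, 9 had estimates below 0 with a median of -0.02. Adm, which encodes adrenomedullin, averaged 66.2 ± 19.0 FPKM in the controls and 49.97 ± 3.21 with overexpression, and Bnip3, a mitophagy receptor, 43.0 ± 10.8 and 41.7 ± 5.51 (SD, n = 3). Vegfa, named after its values were seen, had the lowest estimate of all listed genes, -0.39 with an interval of -0.67 to -0.12 (limma adjusted p = 0.842), at 36.5, 36.0 and 46.9 FPKM in the controls and 27.1, 30.9 and 31.8 with overexpression. The hypoxia median depended on the setting in both directions. It was 0.03 without control replicate 2 and 0.02 with control replicates 1 and 2 averaged. It was -0.13 without control replicate 3, and -0.17 without both libraries that stood apart. In that last setting, added after seeing the data, 10 of 11 estimates were below 0. There 1 gene of the list passed, lower, beside 1.39% of 11840 tested genes in either direction.

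**Figure D4:**
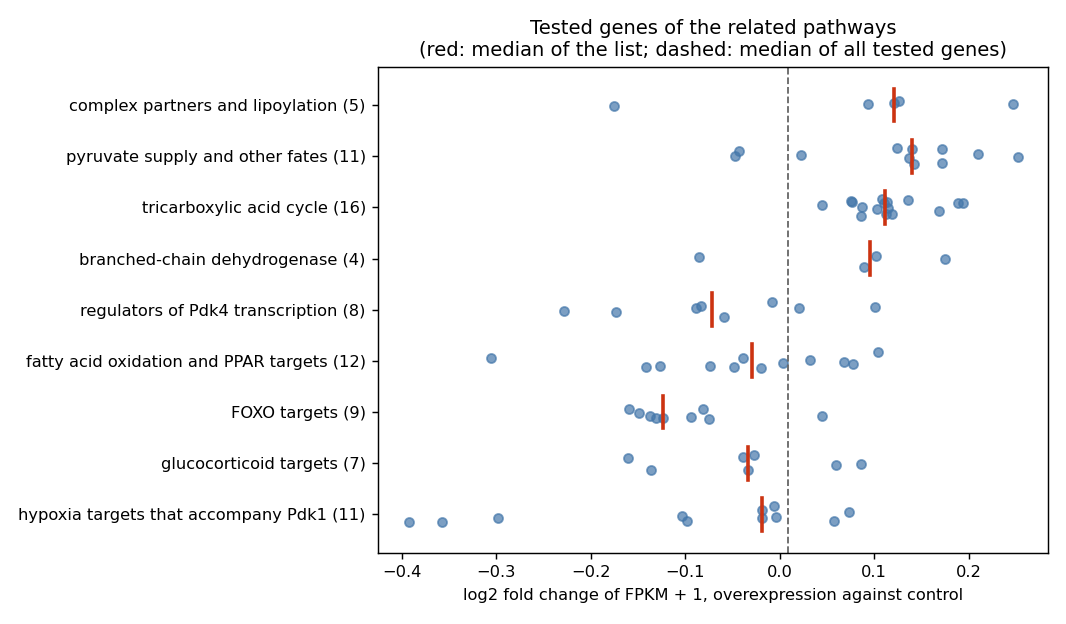
Log2 fold change of FPKM + 1, overexpression against control (horizontal axis), of the tested genes in 9 related lists (1 point per gene, number of tested genes in parentheses, points spread vertically for legibility). Red bars are list medians, from -0.12 for FOXO targets to 0.14 for pyruvate supply, and the dashed line the median of all tested genes, 0.01. No gene shown lies as low as Pdk4 (-0.64), which was chosen on this contrast.

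The genes whose levels followed Pdk4 most closely over the 6 libraries were Zc3h4, Gpr135, Slc26a11, Fem1c and Cirbp. Their Pearson correlations with Pdk4 on log2(FPKM + 1) were 0.99, 0.99, 0.99, 0.98 and 0.98, the highest of 8076 genes with a mean of at least 5 FPKM. The correlation is a description over 6 libraries that fall into 2 groups, and any gene separating them in the same way scores high. Cirbp, a cold-inducible RNA-binding protein, had 27.2, 27.6 and 25.7 FPKM in the controls and 19.9, 23.5 and 22.3 with overexpression. Zc3h4, a zinc finger protein, had 20.6, 20.2 and 20.3 FPKM and 17.6, 18.7 and 18.5. Their estimates were smaller than that of Pdk4, from -0.10 for Fem1c to -0.30 for Gpr135.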

How the data were processed

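RNA of 3 control and 3 overexpression libraries was measured by paired-end Illumina sequencing of libraries made with a NEBNext kit, per the labels' protocols. The authors deposited FPKM values per Ensembl gene, per the file headers. The genome build was mm10, per the submitters' processing notes, and the sources used here do not name the aligner, counting program, annotation or use of strand.

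Symbols, coordinates and exon lengths came from GENCODE M21 (24816 of 24938 genes had a symbol). FPKM multiplied by exon length was a whole multiple of 1 read, within 0.01 reads in all 6 libraries, for 19832 genes, 8 of the 10 members among them; Pdp2 and Pdhb were not. Genes above 1 FPKM in at least 3 libraries were tested with limma 3.58.1 in R 4.3.3 (trend, robust) on log2(FPKM + 1), which understates changes of low genes, with Benjamini-Hochberg adjustment over 12222 genes. The code was tested on simulated data.

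The members and lists were chosen with earlier results of these data known. The text names all members, list genes that passed or else the 2 of highest mean FPKM, and the 5 genes most correlated with Pdk4. Vegfa and Angptl4, and the list genes given as too low to test (Pdha2, Ppara, Pparg, Ppargc1a and Esrrg), were named outside that rule after their values were seen. Alternatives were other pseudocounts and filters, a replicate block, leaving out each library, averaging control replicates 1 and 2, 2 rescalings, limma-voom on recovered reads and array weights. Array weights with averaged controls, and leaving out both libraries that stood apart, were added after seeing the data.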

Additional observations from a re-analysis of the deposited data

How the results depend on the processing

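No gene passed in the main fit or in 14 of 18 alternatives. Leaving out each library in turn gave 0 to 2 genes, with 2 without control replicate 3 and 1 without overexpression replicate 1, none a member. Array weights gave 2241 genes, 18.3% of those tested (among them Pdha1, Dlat and Pdk4, the last chosen on this contrast). Leaving out both libraries that stood apart, a setting added after seeing the data, gave 164 genes, 1.39% of 11840 tested. Pdk4 was the only member among them, which is no test, since it was chosen on this contrast. The cause of these counts was not tested. The Pdk4 difference stayed below 0 in all 18 alternatives, from -0.72 to -0.55 when single libraries were left out. It moved by more than the spread between replicates in 1, array weights with control replicates 1 and 2 averaged (-0.51). Without each library, the difference in the Pdk4 share of kinase FPKM ran from -11.8 to -9.28 percentage points. That in the ratio of Pdk to Pdp FPKM ran from -1.02 to -0.64. The groups did not overlap for either quantity or for Pdk4, which was chosen on this contrast. Leaving out a library could therefore not change these signs.

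Estimates near 0 changed sign. With array weights Pdk1 was -0.12, Pdk3 -0.046 and Pdp2 -0.031. With an equal FPKM sum Pdk1 was -0.059, Pdk3 -0.049 and Pdhx -0.019, and with a pseudocount of 5 Pdk1 was -0.00021. Without both libraries that stood apart Pdk1 was -0.067, Pdk3 -0.073 and Pdp2 -0.079. With array weights and averaged controls Pdk2 was 0.16, Pdp1 0.065 and Pdhx -0.021. When single libraries were left out, Pdk1 ran from -0.11 to 0.060, Pdk2 from -0.31 to 0.039, Pdk3 from -0.034 to 0.047, Pdp1 from -0.21 to 0.062, Pdp2 from -0.094 to 0.16 and Pdhx from -0.0046 to 0.069.

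No pairing of the libraries by replicate number was seen. Same-numbered deviations correlated at -0.10, 0.08 and 0.003, and differently numbered ones at -0.13 to 0.10. With 3 libraries in each group these values cannot exclude a pairing. With the replicate block 0 genes passed, 444 had an unadjusted p below 0.05 instead of 632, and Pdk4 stayed at -0.64. Of the 8 members with recovered reads, Pdk2, Pdk3 and Pdhx had the fewest, down to 295, 458 and 496. Their counting error was thus the largest, at most 5.82%, 4.67% and 4.49% of a library's value. The SD of Pdk2 was 23.1% of its mean in control and 22.5% with overexpression, well beyond its counting error.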
